A study of Mus musculus with 2 samples.

Results

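The genes described here are 10 controllers of the G1 phase of the cell cycle: the D-type cyclins Ccnd1, Ccnd2 and Ccnd3, their kinases Cdk4 and Cdk6, the inhibitors Cdkn1a, Cdkn1b, Cdkn2c and Cdkn2d, and Rb1. They were taken by symbol from the 27998 genes listed in the files, of which 17768 had at least 1 unique molecular identifier (UMI, the count of a captured transcript), and all 10 were found. The data come from fetal livers of pooled C57BL/6 mouse embryos at e13.5, in which Ter119-positive cells had been partly depleted and then partly added back. The cells were profiled by CITE-seq, which reads transcripts and antibody tags from the same droplets, and the series holds 1 cDNA library and 1 antibody library. All 7863 cell barcodes of the cDNA library also had antibody counts. With 1 library there are no replicates, so no test was made, and every interval given here is an exact 95% interval that covers counting error only.

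D-type cyclins bind Cdk4 or Cdk6, and the active kinases phosphorylate the retinoblastoma protein, which then releases E2F transcription factors and lets the cell enter S phase. The INK4 inhibitors, here Cdkn2c (p18) and Cdkn2d (p19), bind Cdk4 and Cdk6 and keep the cyclins off, whereas the CIP/KIP inhibitors Cdkn1a (p21) and Cdkn1b (p27) bind cyclin-kinase complexes and are best known for blocking Cdk2. In the red cell lineage, progenitors divide rapidly, shorten G1 as they begin terminal differentiation, and leave the cell cycle after a limited number of divisions, before the nucleus is lost. Cyclin D3 is known to set the number of those divisions, and p27 and the INK4 proteins are known for their part in the exit.

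Cells were ordered by the surface proteins Ter119, which appears on maturing erythroblasts, and CD71, the transferrin receptor. The tags that counted these proteins were 12 bases long, and they are shown because every stage below rests on them.
Ter119: gaggcgattgat
CD71: cgaagaaggagt
Cells with low Ter119 were divided by rising CD71 into S0-low (1384 cells), S0-medium (1009 cells) and S1 (604 cells). Cells with intermediate Ter119 and high CD71 formed S2 (1261 cells), and cells with high Ter119 were divided into S3, with high CD71 (828 cells), and S4/S5, with low CD71 (866 cells). The median UMI count per cell lay between 3949 in S4/S5 and 10283 in S0-medium. Globin transcripts made up 1.08% of the UMIs in S0-low, 2.81% in S1, 38.6% in S3 and 64.9% in S4/S5. The level of a gene is therefore given as its pooled UMIs per 1000000 non-globin UMIs of the stage, unless stated otherwise. The stages followed their erythroid label: the level of Alas2, the first enzyme of erythroid heme synthesis, was 25.4 in S0-low and 6308 in S4/S5. The embryonic globin genes Hba-x, Hbb-y and Hbb-bh1 marked a cluster of 76 primitive erythroid-like cells, which was not counted as another type. Hbb-y had a level of 960 among S0-low cells and 105116 among S4/S5 cells. Cells past a limit of 5% embryonic globin lay in every stage, with 117 of S0-low, 3 of S1 and 58 of S4/S5. The stages may thus mix primitive and definitive red cells. An alternative given below leaves out the cells past the limit.

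S0-low was not purely erythroid. It held 280 cells (20.2%) of clusters named as other types, of which 188 were megakaryocyte-like, 89 hepatocyte-like and 3 myeloid-like, while the other stages held 4 such cells or fewer. Without the named types S0-low had 1104 cells. It had 1050 when 2 unnamed clusters, with Lsp1 and Ccr2 or Sparc and Dcn among their leading genes, were also left out. The cells left without the named types were thus not shown to be all erythroid. The 13 hepatocyte markers all had UMIs in every stage, with a summed level of 9410 in S0-low, but 428 in S0-medium and 2503 in S4/S5. Summed levels of 12 macrophage markers lay between 195 in S0-low and 1962 in S4/S5, where the widely expressed Ctsb gave 1758 and C1qa, C1qb and C1qc 3.85, 11.5 and 13.1. Those of 13 myeloid markers lay between 90.6 in S0-medium and 714 in S4/S5, with 575 in S0-low. Those of 12 megakaryocyte markers lay between 55.0 in S0-medium and 280.1 in S4/S5, with 146 in S0-low. In UMIs per cell both lists were highest in S0-low, at 4.33 and 1.10, against 1.07 and 0.420 in S4/S5. Markers of mast cells or basophils summed to 40.9 in S0-low and those of lymphoid cells to 17.8, against at most 10.8 and 3.72 in the later stages. Endothelial markers summed to 48.4 to 172 and mesenchymal markers to 19.7 to 301 over the stages, both highest in S0-low. There Egfl7 alone gave 160 of the endothelial sum and Dlk1 alone 288 of the mesenchymal sum.

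Promoter sequence was at hand for 7 of the 10 genes, in 10 windows of 250 bases before an annotated transcript start (RefSeq, GRCm38.p6, the mm10 build). The window of Cdk4 is shown because it stands apart in sequence and belongs to a kinase with lower levels in late stages, as Cdk6 also had, and that of Cdkn2c because it belongs to an inhibitor whose level was higher there. The windows lie at chr10:127063285-127063534 on the plus strand (Cdk4) and chr4:109666757-109667006 on the minus strand (Cdkn2c), each directly before the annotated start of the gene. Capitals mark matches to CACGTG (the E-box bound by the Myc and Max family among others), to CCACACCC (a motif of the Klf family) and to GCGGGAA (an E2F-type motif, read here as its reverse complement TTCCCGC).
Cdk4: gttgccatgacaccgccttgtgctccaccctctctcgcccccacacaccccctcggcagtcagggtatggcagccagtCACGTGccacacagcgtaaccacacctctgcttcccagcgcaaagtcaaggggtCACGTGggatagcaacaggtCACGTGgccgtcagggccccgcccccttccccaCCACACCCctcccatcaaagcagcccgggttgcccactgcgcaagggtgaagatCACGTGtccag
Cdkn2c: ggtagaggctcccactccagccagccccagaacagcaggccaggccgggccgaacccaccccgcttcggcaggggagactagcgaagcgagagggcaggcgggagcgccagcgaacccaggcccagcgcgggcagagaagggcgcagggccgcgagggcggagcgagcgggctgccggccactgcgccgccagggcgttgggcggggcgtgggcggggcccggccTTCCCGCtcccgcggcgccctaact
The Cdk4 window held 4 copies of CACGTG, beginning 172, 118, 98 and 11 bases before the start. At least 1 copy was found in 6.02% of the 32851 windows of all genes, and 4 or more in 7 of them (0.0213%). Cdk6 had 1 copy, 220 bases before a start annotated inside the gene. GCGGGAA was found in 3.82% of all windows and CCACACCC in 3.20%. The GATA motif AGATAA, present in 9.99% of all windows on either strand, was found in 0 of the 10 windows. The motifs were chosen with these windows in view, and a match describes letters only.

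Ccnd3 (chr17:47505051-47599689, mm10, as are the positions that follow) was the D-type cyclin with the most transcripts from S0-medium on. Its level was 187 in S0-low (178.5–195.1, from 1946 UMIs), then 247 in S0-medium and 455.5 in S1, 948 in S2 (926–969.9), 834 in S3 (800.1–869.5) and 323 in S4/S5 (293–356). It was thus highest in S2, close below that in S3, and lower than in S1 by S4/S5. Counted per cell, Ccnd3 gave 1.41 UMIs in S0-low, 4.50 in S1, 5.82 in S2, 2.71 in S3 and 0.485 in S4/S5. By either measure S2 was the peak.

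Ccnd2 (chr6:127125162-127152188) ran the other way. Its level was 185 in S0-low (177–193), then 151 in S0-medium and 92.6 in S1, 46.1 in S2, 31.3 in S3 (24.9–38.7) and 30.8 in S4/S5 (22.0–41.9). By level each stage was below the one before it up to S3, and the intervals of S3 and S4/S5 overlapped. In UMIs per cell S0-medium, at 1.53, stood above S0-low, at 1.39.

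Ccnd1 (chr7:144929931-144939831) had most of its UMIs in S0-low. Its level was 33.7 there (30.2–37.4, from 351 UMIs), 1.56 in S0-medium, 1.68 in S1, 1.68 in S2, 4.47 in S3 and 3.08 in S4/S5, and each of the later 5 stages rested on 4 to 16 UMIs. The hepatocyte-like cells of the library had a Ccnd1 level of 260.5 and the macrophage-like cells one of 100.2. Without the 280 cells of named other types the level in S0-low was 14.6, so most of the Ccnd1 UMIs of S0-low lay in those cells.

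The makeup of the D-type cyclins changed accordingly. Each UMI marks 1 captured 3′ end, so shares need no correction for transcript length, although genes can differ in how well they are captured. Ccnd3 made up 46.1% of the D-cyclin UMIs in S0-low (44.6–47.6%), then 61.8% in S0-medium and 82.9% in S1, 95.2% in S2, 95.9% in S3 (95.01–96.66%) and 90.5% in S4/S5. Ccnd2 made up 45.6% in S0-low, 16.8% in S1 and 3.59% in S3. The early stage was split almost evenly between Ccnd2 and Ccnd3, and that split remained without the named other types, at 47.9% and 48.4%. The summed level of the 3 cyclins was 405 in S0-low, then 399 in S0-medium and 549.8 in S1, 996 in S2, 870.0 in S3 and 357 in S4/S5. Its lowest and highest stages differed less than those of Ccnd2 or Ccnd3 alone.

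**Figure D1:**
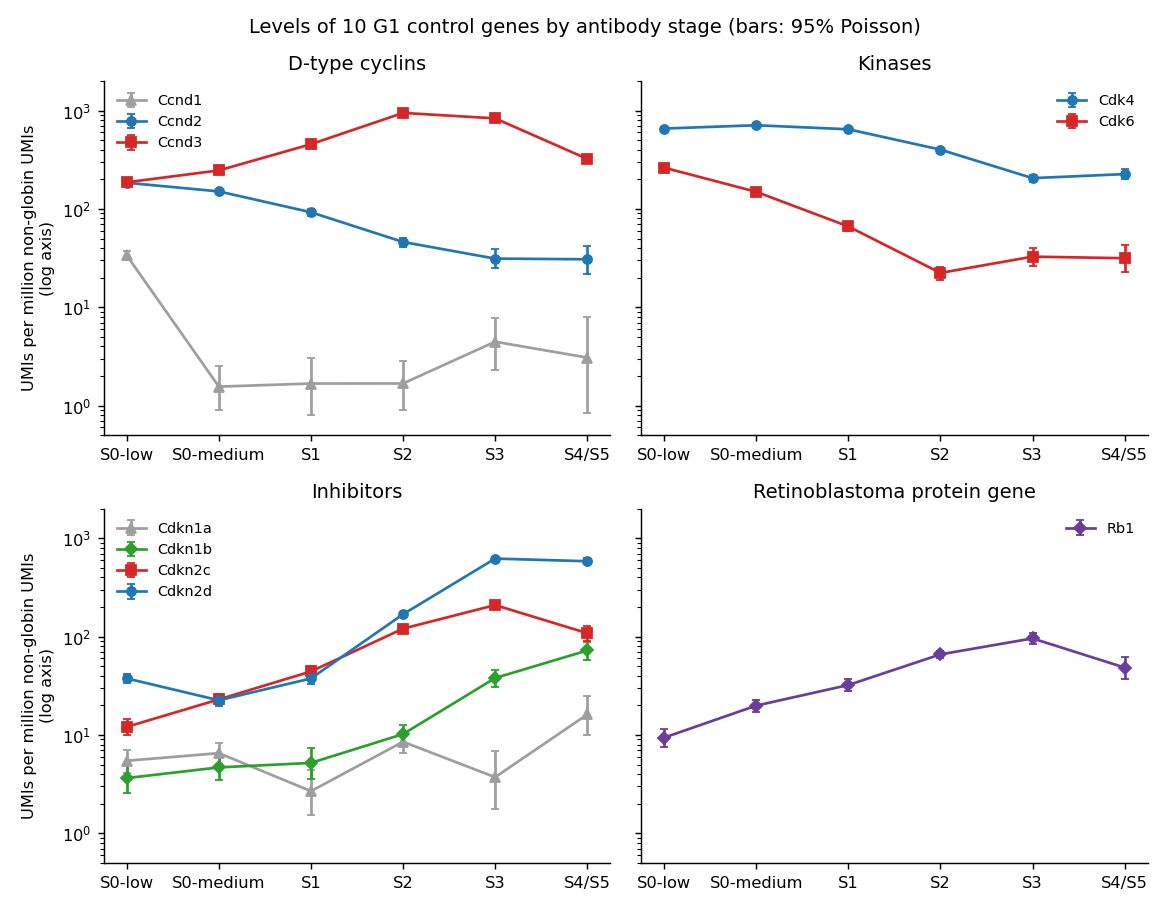
Levels of the 10 genes in the 6 antibody stages, in UMIs per 1000000 non-globin UMIs on a log axis, with exact 95% Poisson intervals as bars. Ccnd3 peaks at 948 in S2 while Ccnd2 and Cdk6 lie at 46.1 and 22.4 there, and Cdkn2d reaches 622 in S3.

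Cdk4 (chr10:127063535-127067288) was the more abundant kinase transcript in every stage. Its level was 658 in S0-low (642–673), then 710.2 in S0-medium and 646 in S1 (626–667), 401 in S2, 206 in S3 (189–224) and 226 in S4/S5 (201–254). The 3 stages with low Ter119 lay close together, and the later stages were lower.

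Cdk6 (chr5:3341004-3531008) had its highest level at the start. It was 263 in S0-low (253–273), then 149 in S0-medium and 66.4 in S1, 22.4 in S2 (19.2–25.9), 32.7 in S3 (26.3–40.3) and 31.55 in S4/S5 (22.6–42.8). The S3-over-S2 ratio was 1.47 (1.12–1.90) on this scale, 1.04 with all UMIs as denominator and 0.775 per cell, and the interval of S4/S5 overlapped that of S2, so no late rise was read. Of the 7 progenitor markers, Kit (62.2 in S0-low, 4.27 in S2, 10.8 in S4/S5), Cd34 (50.5, 1.42, 9.23), Hmga2 (67.3, 2.58, 11.5) and Gata2 (29.4, 1.42, 8.47) were also lowest in S2 among these 3 stages. Myc was not (156, 35.8, 33.1), and Ermap (153.5, 343, 506) and Mt1 (819.9, 1226, 1328) were higher in each. Their part in the late Cdk6 and Ccnd2 levels was not tested.

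Cdk6 made up 28.6% of the UMIs of both kinases in S0-low, 9.32% in S1, 5.28% in S2 and 12.2% in S4/S5. The summed level of the kinases was 921 in S0-low, 712.5 in S1, 424 in S2, 238.5 in S3 and 258 in S4/S5.

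Cdkn2d (chr9:21288459-21291421) was the INK4 inhibitor with the higher level in late stages. Its level was 37.6 in S0-low (34.0–41.5), then 22.5 in S0-medium (19.7–25.6) and 37.6 in S1, 169 in S2 (160–178.5), 622 in S3 (593–653) and 585 in S4/S5 (544–628). The level was lowest in S0-medium, and S3 and S4/S5 could not be told apart by their intervals. In UMIs per cell they differed, at 2.02 in S3 and 0.878 in S4/S5. Megakaryocyte-like cells, of which 188 lay in S0-low, had a Cdkn2d level of 243, and without the named other types S0-low stood at 31.4.

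Cdkn2c (chr4:109660876-109666756) was higher in each stage than in the one before, up to S3. Its level was 12.1 in S0-low (10.1–14.4), then 23.0 in S0-medium and 44.3 in S1, 121 in S2, 209.5 in S3 (192.5–227.5) and 108.5 in S4/S5 (91.3–128). Unlike that of Cdkn2d, the S4/S5 interval of Cdkn2c lay wholly below that of S3. The S4/S5-over-S3 ratio was 0.518 (0.428–0.624) for Cdkn2c and 0.940 (0.862–1.03) for Cdkn2d, and these intervals did not overlap. Per cell the ratios were 0.240 for Cdkn2c and 0.435 for Cdkn2d, beside a median of 0.400 over all genes measured.

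Cdkn1b (chr6:134920401-134925525) was highest late, and lower than the INK4 genes there. It was 3.645 in S0-low (2.58–5.0), then 4.68 in S0-medium and 5.2 in S1, 10.2 in S2 (8.08–12.7), 37.95 in S3 (30.9–46.1) and 72.3 in S4/S5 (58.5–88.5). Its level was highest in the last stage, and many cells stood behind it: the 94 UMIs of S4/S5 came from 81 cells, and the 102 UMIs of S3 from 89.

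Cdkn1a (chr17:29090979-29100722), a well-known target of p53, was low throughout. Its level was 5.47 in S0-low, then 6.53 in S0-medium and 2.68 in S1, 8.53 in S2, 3.72 in S3 and 16.2 in S4/S5, from 10 to 67 UMIs a stage. In every stage but S0-low, 5 cells held most of these UMIs. In S4/S5 a single cell held 14 of 21, and the level without it was 5.4. In S0-medium the share of those 5 cells was 74.6% of 67. Counting intervals understate the spread of Cdkn1a, and no order of its stages was read.

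Summed over the 4 inhibitors, the level was 58.8 in S0-low, then 56.8 in S0-medium and 89.7 in S1, 308 in S2, 873 in S3 and 782 in S4/S5. Cdkn2d gave 63.9% of these UMIs in S0-low, then 39.7% in S0-medium and 41.9% in S1, 54.8% in S2, 71.2% in S3 and 74.8% in S4/S5. Cdkn2c gave 20.6% in S0-low, its largest share of 49.4% in S1, and 13.9% in S4/S5. In S3 the summed level of these 4 inhibitors (873) and that of the D-type cyclins (870.0) were close, whereas in S0-low the cyclins stood at 405 and the 4 inhibitors at 58.8. The sum leaves out the inhibitor Cdkn1c, whose level alone was 96.4 in S0-low and 12.3 in S3. These are transcript levels, and protein was not measured for any of the 10 genes.

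**Figure D2:**
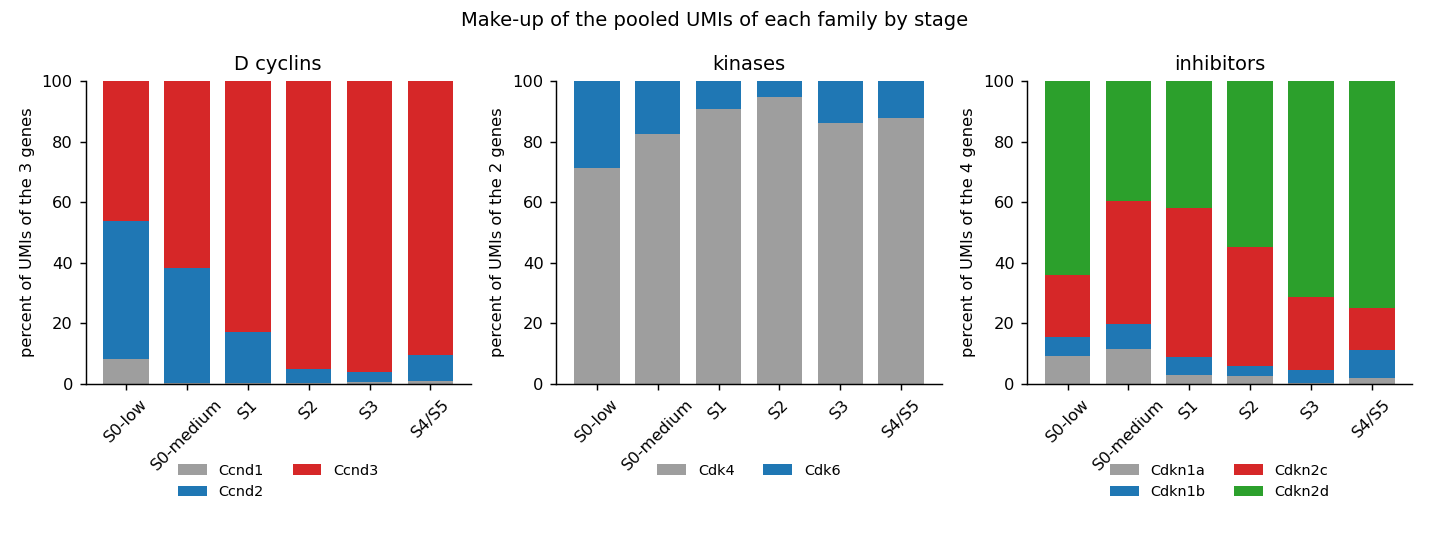
Share of each gene among the pooled UMIs of its family in each stage, in percent, for the 3 D-type cyclins, the 2 kinases and the 4 inhibitors. Ccnd3 passes from 46.1% of D-cyclin UMIs in S0-low to 95.9% in S3, and Cdkn2d is the largest part of the inhibitors from S2 on.

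Rb1 (chr14:73192858-73325951), which encodes the retinoblastoma protein that Cdk4 and Cdk6 phosphorylate, followed the course of Cdkn2c. Its level was 9.4 in S0-low (7.63–11.5), then 19.9 in S0-medium and 32.2 in S1, 66.0 in S2, 96.0 in S3 (84.6–108.5) and 48.5 in S4/S5 (37.2–62.0). Every step up to S3 had intervals that did not overlap, and S4/S5 was below S3. In UMIs per cell S2 was the highest of these stages for Rb1 (0.405, against 0.312 in S3) and for Cdkn2c (0.74 against 0.68), and S3 for Cdkn2d (2.02 against 1.04 in S2).

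In the passage through the progenitors, from S0-low to S1, Ccnd3, Cdkn2c and Rb1 were higher and Ccnd1 and Cdk6 lower. A gene is counted as past 2-fold here when its level differed at least 2-fold with at least 50 UMIs over both stages, a limit that all 10 genes passed. The count was 3 genes higher, beside 3.26% of the 9320 genes so measured, and 3 lower, with Cdkn1a counted beside Ccnd1 and Cdk6, beside 15.8% of them. The ratios of the higher genes were 3.66 for Cdkn2c (2.95–4.57), 3.43 for Rb1 (2.67–4.42) and 2.44 for Ccnd3 (2.30–2.59). Among the lower genes, Cdk6 had a ratio of 0.253 (0.227–0.281), 3.96-fold lower in S1, and Ccnd1 one of 0.0498 (0.0237–0.0927). Ccnd2, at 0.501 (0.455–0.551), lay just inside the limit and was not counted. Cdk4 at 0.983 (0.944–1.02) and Cdkn2d at 0.999 (0.844–1.18) were level between these stages. The median ratio was 0.991 over the 10 genes and 0.895 over all genes measured. With gates set on log10 antibody counts, Ccnd3 had a ratio of 1.41 and Cdkn2d one of 0.399, and with the named other types left out of every stage Ccnd1 had one of 0.0812. The ratio of Cdkn1a, 0.491, rested on 73 UMIs and is read as no direction: under the other gates tried, and per cell, it was not counted, and it was 1.04 with gates from a Gaussian mixture.

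From S1 to S3, at the start of terminal differentiation, the inhibitors Cdkn1b, Cdkn2c and Cdkn2d and Rb1 were higher and the kinases and Ccnd2 lower. Of the 8 genes with enough UMIs, 4 were past 2-fold higher, beside 9.3% of 7541 genes, and 3 past 2-fold lower, beside 20.3%. The higher genes were Cdkn2d at 16.6-fold (14.4–19.1), Cdkn1b at 7.30-fold (4.84–11.3), Cdkn2c at 4.73-fold (4.08–5.50) and Rb1 at 2.98-fold (2.46–3.61). The lower genes were Cdk4, 3.14-fold lower, Ccnd2, 2.96-fold lower, and Cdk6, 2.03-fold lower, the last with an interval of the ratio that reached past the limit (0.387–0.623). Ccnd3 was 1.83-fold higher (1.73–1.94) and not counted. Ccnd1 and Cdkn1a, with 22 and 26 UMIs over both stages, were below the limit. The median ratio was 2.25 over the 10 members, Ccnd1 and Cdkn1a included, and 0.748 over all genes measured. The latter was 0.472 with all UMIs as denominator and 0.246 per cell. Relative to that median gene, the ratio was 22.1 for Cdkn2d, 9.77 for Cdkn1b, 6.33 for Cdkn2c, 3.99 for Rb1, 2.45 for Ccnd3 and 0.426 for Cdk4. The denominator cancels in these relative values, so they must be the same for non-globin UMIs, all UMIs or cells. Their sameness is therefore no check of the result. The median non-globin UMI count per cell was 9928 in S1 and 2336 in S3, and in UMIs per cell Ccnd3 had a ratio of 0.602 and Rb1 one of 0.980, while Cdkn2d remained 5.45-fold and Cdkn1b 2.40-fold higher. The count higher was 2 to 5 over the alternatives, and the count lower 2 to 3, with Cdk6 the gene lost.

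The step within these stages differed by gene. Between S1 and S2 Cdkn2d was 4.50-fold, Cdkn2c 2.72-fold, Ccnd3 2.08-fold and Rb1 2.05-fold higher. Between S2 and S3 Cdkn1b was 3.72-fold and Cdkn2d 3.68-fold higher, while Cdkn2c was 1.74-fold higher and Ccnd3 stood at 0.88. Cdkn2d thus had a step on both sides of S2, the larger before it, though with intervals that overlapped (3.90–5.21 and 3.42–3.96). Cdkn1b had its largest step after S2. In UMIs per cell the ratios between S1 and S2 were 2.80 for Cdkn2d, 1.69 for Cdkn2c, 1.29 for Ccnd3 and 1.275 for Rb1. Between S2 and S3 they were 1.97 for Cdkn1b, 1.95 for Cdkn2d and 0.919 for Cdkn2c.

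In the last step, from S3 to S4/S5, Ccnd3 was the gene past 2-fold, at 2.58-fold lower (ratio 0.387, 0.348–0.430). Of 8 genes with enough UMIs it was 1 lower, beside 5.39% of 5400 genes, and 0 were higher, beside 3.17%. Rb1 at 0.505 (0.377–0.668) and Cdkn2c at 0.518 lay just inside the limit, as did Cdkn1b on the other side at 1.91 (1.42–2.55). Cdk4 at 1.1 (0.951–1.27), Ccnd2 at 0.985 (0.658–1.45) and Cdk6 at 0.964 (0.648–1.41) had intervals that held 1. The median ratio was 0.952 over the 10 members, those with too few UMIs included, and 0.864 over all genes measured. The count lower lay between 1 and 6 under the alternatives. It was 6 when levels were taken per cell, where the median ratio over all genes measured was itself past 2-fold lower, at 0.400. The 6 are therefore not read as a result about these genes. By that measure Cdkn1b had a ratio of 0.881.

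**Figure D3:**
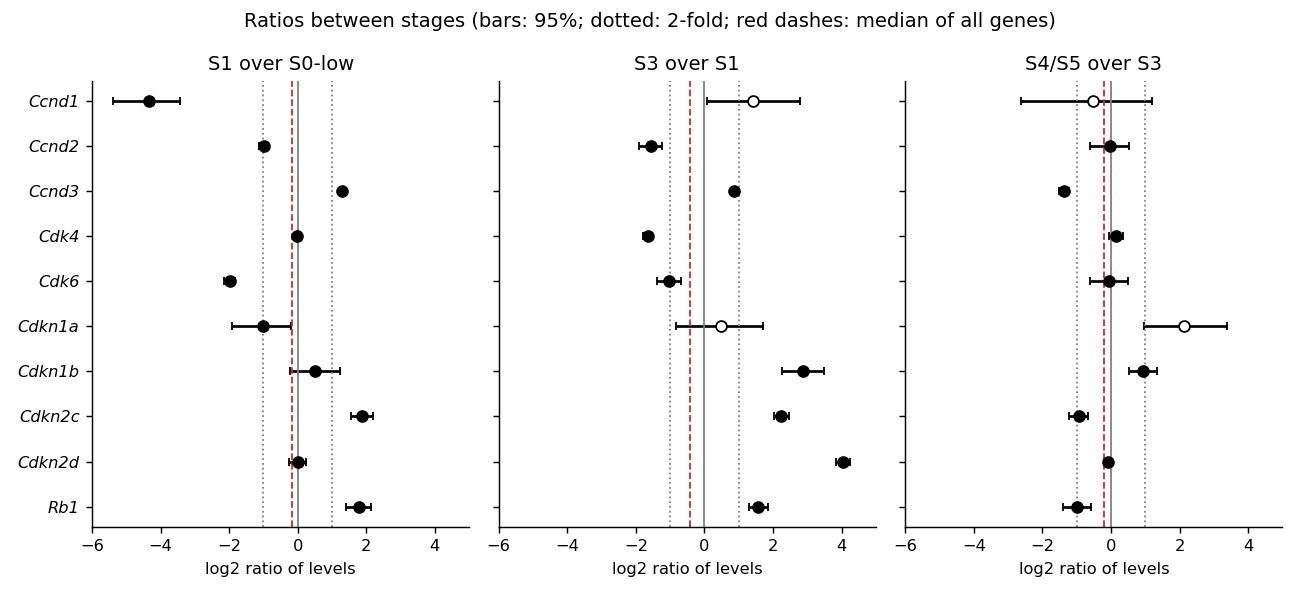
Log2 ratios of levels for the 10 genes in the 3 comparisons, with exact 95% intervals, where open points mark fewer than 50 UMIs, dotted lines 2-fold and the red dashed line the median of all genes measured. In S3 over S1 the filled points of Cdkn2d, Cdkn1b, Cdkn2c and Rb1 lie right of the 2-fold line, and those of Cdk4 and Ccnd2 lie left of it.

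Other genes of the G1 pathway were read from a list of 23, of which 22 had a UMI in the first comparison. From S0-low to S1, 3 of 20 with enough UMIs were past 2-fold higher, beside 3.26% of all genes: the E2F genes E2f2 at 3.05 (2.37–3.95) and E2f8 at 2.05 (1.78–2.38), and the Cdk2 cyclin Ccne2 at 2.08 (1.83–2.36). The 1 lower gene, beside 15.8%, was the inhibitor Cdkn1c (p57), whose level was 96.4 in S0-low and 7.55 in S1. Its 1005 UMIs in S0-low came from 8.96% of the cells there (unthinned). The part of the named other types in this was not tested. From S1 to S3, 2 of 18 were higher and 4 lower, shares near those of all genes (9.3% and 20.3%). The higher were E2f2 with a level of 28.7 and then 198, and its dimer partner Tfdp2 with 78.2 and then 480.4. The lower were E2f3 (ratio 0.317), the phosphatase Cdc25a (0.417), the cyclin E gene Ccne1 (0.439, from a level of 325 to 142.5) and E2f6 (0.469). From S3 to S4/S5, Tfdp2 was again higher, at 991.9, and Cdk2 (0.367), Ccne2 (0.42), E2f8 (0.455) and the retinoblastoma relative Rbl1 (0.495) were lower, of 15 genes, beside 3.17% higher and 5.39% lower of all genes. The Tfdp2 ratio was 2.07 by level, 1.18 with all UMIs as denominator and 0.955 per cell. The median ratio of the list was 1.15, 1.01 and 0.677 in the 3 comparisons. The levels of 13 S-phase genes summed to 1721 in S0-low, 2942 in S1, 4272 in S2, 3812 in S3 and 2012 in S4/S5, and those of 12 mitosis genes to 2278, 3117, 4647, 7101 and 6332 in the same stages. By level, the S-phase list had its highest stage where Ccnd3 did, and the mitosis list where Cdkn2c, Cdkn2d and Rb1 did. In UMIs per cell both lists were highest in S1, at 29.0 and 30.8, against 26.2 and 28.5 in S2 and 12.4 and 23.1 in S3.

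A finer order was made from the antibodies alone, with 8 groups of Ter119-low cells by rising CD71, 3 groups of S2 cells by rising Ter119 and 5 groups of Ter119-high cells by falling CD71. Ccnd3 lay between 172 and 212 in the first 5 groups, was 524 in the group of highest CD71 among the Ter119-low cells, peaked at 1075 in the middle of S2 (1035–1116) and was 249 in the last group. By level, Cdkn2c, Cdkn2d and Rb1 all peaked later, in the Ter119-high group with the second-highest CD71, at 234.5 (205–267), 757 (703–815) and 115 (94.1–138). In that group Ccnd3 was at 741.5 and Cdk4 had its lowest level of the 16 groups, 166 (141–194). The Rb1 interval there overlapped that of the last S2 group (74.6–101.5), whose Ccnd3 interval (948–1037) overlapped the Ccnd3 peak. A later peak of Rb1 was thus not resolved by level. In UMIs per cell the later peak held for Cdkn2d alone, at 2.12 in the Ter119-high group of its peak level. Rb1 was highest with Ccnd3 in the middle of S2 (0.441, against 0.322 in that Ter119-high group). Cdkn2c lay at 0.785 to 0.786 from the middle of S2 to the first Ter119-high group. Cdk4 had 158 UMIs in the group of its lowest level and 142, 137 and 96 in the groups after it, of 338 or 339 cells each. Per cell it was thus lowest in the last group.

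Cdk4 was lower in each group of S2 than in any Ter119-low group. Its level lay between 641 and 734 in all 8 Ter119-low groups, and was 489, 384 and 276 in the 3 groups of S2. Among the Ter119-low cells it was highest in group 6, at 734 (707–761.5). It was already lower in groups 7 and 8, at 672 (646–698) and 641 (615–667). The S1-over-S0-medium ratio was 0.910 (0.875–0.946). Cdk6 had come down further among the Ter119-low groups, from 384 in the first group to 187 in groups 4 and 5 and 50.6 in group 8. Cdkn1b stayed between 3.14 and 5.54 up to the first group of S2. By level it was then 10.2, 18.1, 31.9, 41.0 and 67.4 in the groups that followed, with 64.9 and 74.3 in the last pair, whose intervals overlapped. The 5 Ter119-high groups, of 338 or 339 cells each, held 44, 39, 47, 37 and 29 Cdkn1b UMIs. Per cell there was thus no rise among these 5 groups. Cdkn2d dipped among the Ter119-low cells, from 62.4 (51.9–74.4) in the first group to 21.3 (17.0–26.4) in group 5. Cells of named other types made up 27.7% and 35.2% of the first 2 groups and 0.533% of group 5, and their part in this was not tested along the groups. Over the 16 groups, which share 1 library and differ in depth, the Pearson r of log2(level + 10) was 0.98 between Cdkn2c and Rb1, 0.92 between Cdkn1b and Cdkn2d, 0.92 between Ccnd2 and Cdk6, and -0.98 between Cdk4 and Cdkn2d.

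**Figure D4:**
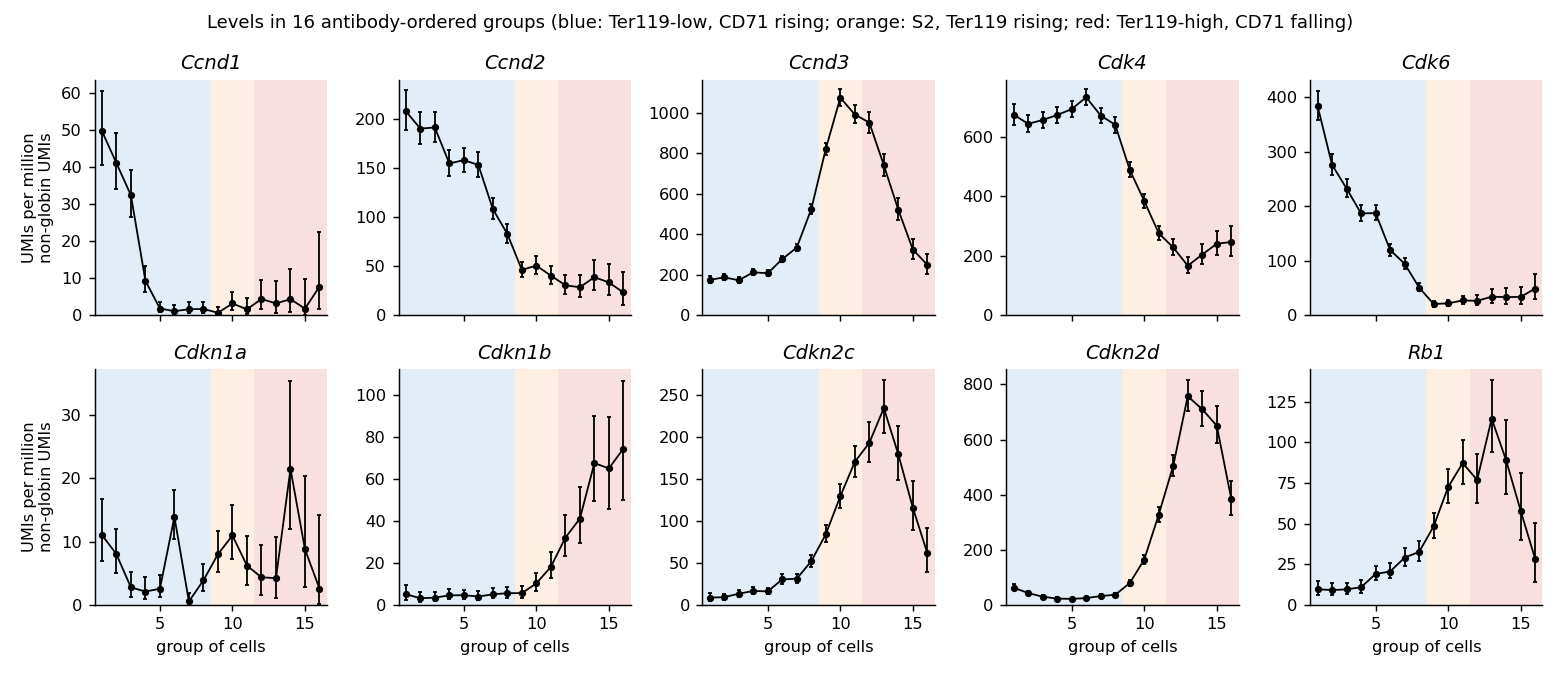
Levels of the 10 genes in 16 groups of cells ordered by antibody counts, in UMIs per 1000000 non-globin UMIs with exact 95% Poisson intervals. The background marks Ter119-low cells by rising CD71 (blue), S2 cells by rising Ter119 (orange) and Ter119-high cells by falling CD71 (red), and on this scale the Ccnd3 peak of 1075 comes before the peaks of Cdkn2c (234.5) and Cdkn2d (757), an order that holds for Cdkn2d but not for Cdkn2c in UMIs per cell.

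Genes most like each member over these groups were sought among 8075 genes with at least 200 UMIs. For Ccnd3 they were Cenpk (r = 0.986), a centromere protein gene, Ndufv1 (0.984) and Fignl1 (0.979). For Cdkn2c they were the glycine transporter gene Slc6a9 (0.994), Dusp1 (0.993) and the histone gene Hist1h4i (0.988). Among the genes most like Cdkn2d were Rap1a (0.990) and the erythroid transcription factor gene Nfe2 (0.990), and Cdkn1b was most like the anti-apoptotic gene Bcl2l1 (0.997), Slfn14 (0.997) and Tcp11l2 (0.995). Rb1 was most like the proliferation marker Mki67 (0.985), Cdk4 most like Ybx1 (0.995), Cdk6 most like Rilpl2 (0.985), Ccnd2 most like Mta1 (0.987) and Ccnd1 most like Lpgat1 (0.98). The best match of Cdkn1a reached 0.713, with Rab1a. These values are descriptions over groups of 1 library.

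The share of cells with a UMI was compared after each cell was thinned to 1000 non-globin UMIs, which left out 1 to 23 cells a stage up to S3 and 236 in S4/S5. Ccnd3 was found in 18.4% of S0-low cells, 39.5% of S1, 61.0% of S2 (unthinned 93.5%), 47.3% of S3 (71.3%) and 24.4% of S4/S5 (31.8%). In the 190 hepatocyte-like cells, whose median non-globin depth of 12825.5 UMIs compares with 5063 in S2, it was found in 8.95% (unthinned 60%). Ccnd3 thus lay above that type in every stage, but megakaryocyte-like (26.3%) and myeloid-like cells (30.6%) had larger shares than both S0 stages and S4/S5.

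Cdkn2d was found in 3.84% of thinned S0-low cells, 4.48% of S1, 17.5% of S2, 41.5% of S3 and 31.1% of S4/S5, and in 1.58% of hepatocyte-like cells. Megakaryocyte-like cells (15.5%, 11.8–19.8%) and myeloid-like cells (12.6%, 7.07–20.3%) had larger shares than S0-low and S1. Their intervals overlapped that of S2 (15.4–19.7%). Macrophage-like cells were at 3.75%. Unthinned, its shares were 27.0% in S1, 62.7% in S3 and 26.8% in hepatocyte-like cells. Cdkn2c was found in 2.1%, 5.47%, 13.6%, 17.8% and 8.89% of S0-low, S1, S2, S3 and S4/S5 and in 1.58% of hepatocyte-like cells. Megakaryocyte-like cells were at 1.17% and myeloid-like cells at 2.70%. Macrophage-like cells were at 7.5%, above S1, and their wide interval (2.80–15.6%) overlapped those of all stages. For Cdkn1b the shares in these stages were 0.653%, 0.829%, 1.59%, 5.34% and 6.67%, against 1.58% of hepatocyte-like cells. Its shares were above that type in S3 (3.89–7.13%) and S4/S5 (4.85–8.91%), where the S3 interval overlapped that of hepatocyte-like cells (0.327–4.55%). Ccnd2, at 15.4% in S0-low, was at 1.99% in S3 and 1.75% in S4/S5. These late shares lay below the 2.11% of hepatocyte-like cells (0.577–5.30%) and above the 1.25% of macrophage-like cells (0.0316–6.77%). The intervals overlapped, and whether the late shares are background was not tested. Unthinned, the Ccnd2 shares were 59.5% in S0-low, 6.88% in S3 and 30.5% in hepatocyte-like cells. Cdk6, at 24.7% in S0-low and 13.1% in S0-medium, was at 5.47% or less from S1 on, below the 7.37% of hepatocyte-like cells (unthinned 74.1% in S0-low, 35.3% in S1 and 49.0% in hepatocyte-like cells). No expression in single cells was read from those shares.

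The INK4 inhibitors were found together in some cells. Among 805 thinned S3 cells, 85 (10.6%) had UMIs of both Cdkn2c and Cdkn2d, 58 of Cdkn2c alone and 249 of Cdkn2d alone, while in S1 4 of 603 had both. Ccnd3 and Cdkn2c were found together in 113 of 1259 S2 cells and in 71 of 805 S3 cells. Ccnd2 and Ccnd3 were found together in 33 of 1379 S0-low cells, beside 180 with Ccnd2 alone and 221 with Ccnd3 alone. At this depth a gene with no UMI in a cell may still be expressed there.

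**Figure D5:**
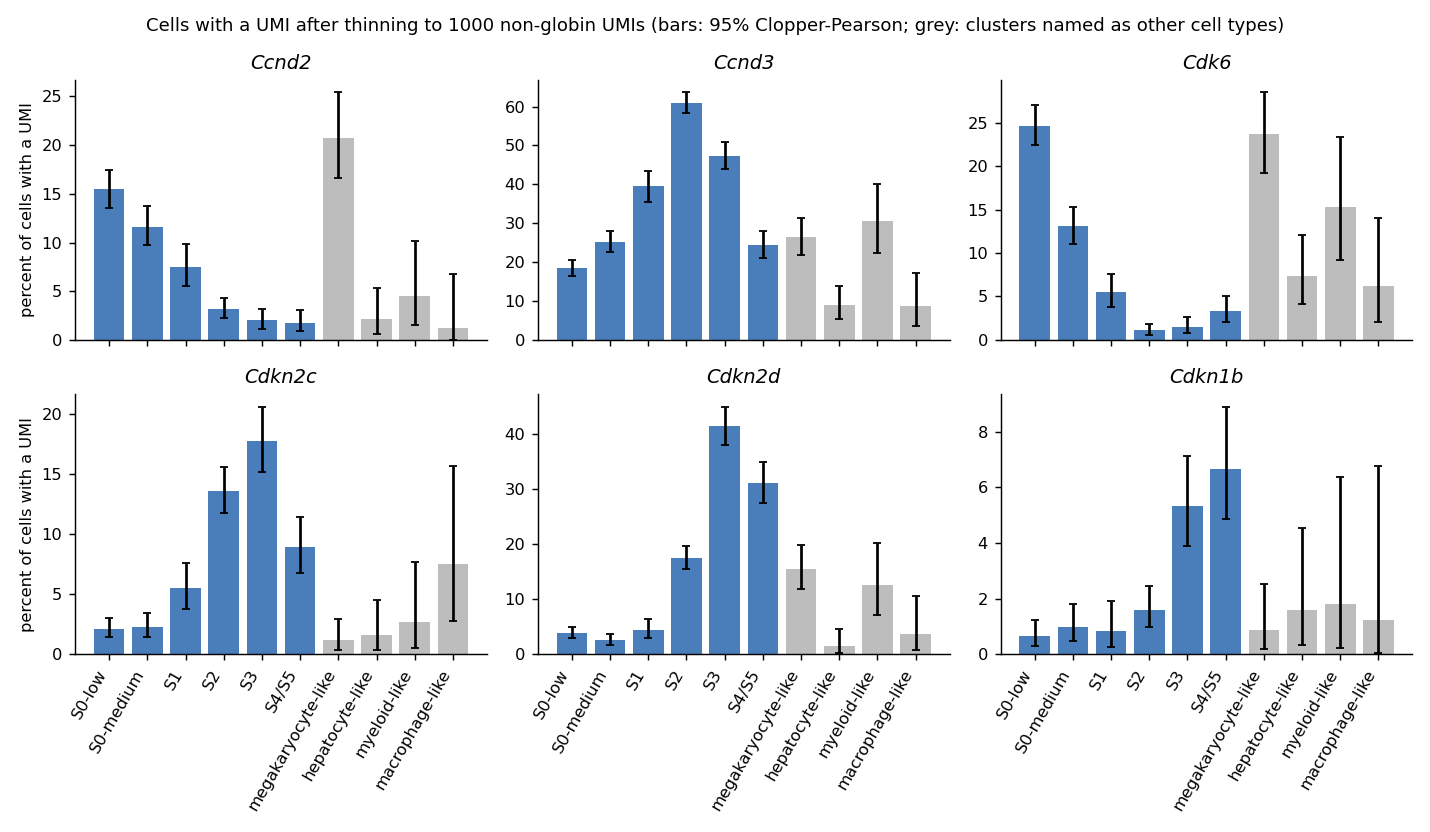
Percent of cells with at least 1 UMI of 6 of the genes after thinning to 1000 non-globin UMIs, in the 6 stages (blue) and in clusters named as other cell types (grey), with exact 95% Clopper-Pearson intervals. Ccnd3 is found in 61.0% of S2 cells and Cdkn2d in 41.5% of S3 cells, and both lie above all 4 other types there.

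Within S0-low, cKit separated 806 cells with high antibody counts (median 424.5) from 578 with low counts (median 77.5). Cells high in cKit, the stem cell factor receptor of early progenitors, had less Rb1 (ratio 0.618, 0.407–0.945) and more Ccnd2 (1.44) and Cdk6 (1.35). The differences of Ccnd2 and Cdk6 were not found without the named other types, at 1.09 (0.971–1.23) and 1.03 (0.933–1.13). Ccnd1, at 0.15 in all S0-low cells, stood at 0.997 (0.658–1.54) without them. In those remaining cells Ccnd3 was lower where cKit was high, at 0.712 (0.640–0.793), as was Rb1 at 0.499 (0.317–0.791). Depth differed between them, at a median of 7750 UMIs where cKit was high and 4321 where it was low, and per cell the ratio was 1.29 for Ccnd3 and 0.905 for Rb1. By level, Cdkn2c at 0.72 (0.480–1.09) had an interval that held 1.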

How the data were processed

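Per the labels and the methods of the study, cDNA reads of a 10x library were mapped to mm10 with Cell Ranger and antibody reads were assigned with CITE-seq-Count. The deposited values are raw UMI counts by gene and cell, and raw counts by antibody and cell. The counts had not been normalized or filtered for doublets, at 58606632 UMIs and a median of 5707 per cell (2510 to 38047). The median antibody count per cell was 1092, and 1.05% of antibody reads matched no antibody. Seurat is also named in the submitters' processing notes.

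A cell had to show 300 to 5000 genes and no more than 9% mitochondrial UMIs, which 508 cells failed. Doublets, called with the Scrublet method (expected rate 6%, 128 cells or 1.63% called), were removed, leaving 7244 cells. Cells were lineage-low when 5 lineage antibodies (CD41, CD45R, CD3e, CD11b, Ly6G/6C) summed to less than the median plus 2 scaled median absolute deviations, 73.6 counts, which 6160 were, and 208 of these fell in no stage. Gate positions are not given in the sources used here, so antibodies were scaled by centered log ratio and divided by k-means. The borders were 24.5 and 88.5 counts for Ter119, 239.5 and 765 for CD71 in Ter119-low cells, and 728 for CD71 in Ter119-high cells. Other cell types were named from 17 Leiden clusters (1992 variable genes without the 10 described, 16 components, 30 neighbours, resolution 0.8) with at least 3 markers among the 10 leading genes.

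Levels are pooled UMIs per 1000000 non-globin UMIs, with exact Poisson intervals, conditional binomial intervals for ratios and Clopper-Pearson intervals for shares. All 10 members are named. Other G1 genes are named when past 2-fold, at most 4 each way, and the 3 genes most like a member by Pearson r of log2(level + 10). The results of 2 genes are not reported here. The members, lists and gates were chosen with earlier results of these data known. The ratio and its interval were tried on simulated Poisson counts, the model that the interval assumes. That trial could not show how they behave when few cells hold most UMIs. Alternatives changed the denominator, gates, filters, doublets, other cell types, embryonic globin cells, thinning and limits. The scripts ran in Python 3.11.15 with scanpy 1.11.5 and anndata 0.12.19 for clustering (igraph 0.11.9), scikit-learn 1.9.0 for k-means, scipy 1.17.1 for intervals, pandas 2.3.3, numpy 2.4.6 and matplotlib 3.10.9, with seed 7.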

Additional observations from a re-analysis of the deposited data

How the results depend on the processing

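No paired analysis was possible because there is 1 library of each kind, and no replicate could be left out. Of 450 member ratios under alternatives, 315 stayed inside the counting interval of the reported value, 128 left it and 7 more turned although that interval excluded 1. Ratios with an interval that held 1 included, 48 lay on the other side of 1. Scaled per cell, the S3-over-S1 ratio was 0.875 for Ccnd1, 0.602 for Ccnd3 and 0.98 for Rb1, and the S4/S5-over-S3 ratio of Cdkn1b was 0.881. For Cdkn1a the S1-over-S0-low ratio was 1.04 with a Gaussian mixture, and the S4/S5-over-S3 ratio was 0.787 with log10 antibody counts and 0.724 with antibodies scaled within each cell. The count of members past 2-fold from S0-low to S1 was 2 to 3 higher and 2 to 4 lower. From S1 to S3 it was 3 to 5 higher, except for 2 per cell (Cdkn1b and Cdkn2d), and 2 to 3 lower. From S3 to S4/S5 the count lower was 6 per cell, where the median ratio over all genes measured was 0.400 (0.495 with all UMIs as denominator). It was 3 with all UMIs as denominator, with the mean over cells, with antibodies scaled within each cell, with border cells left out, with no lineage filter and at 1.5-fold. It was 2 with the Gaussian mixture, the stricter lineage filter, the named other types left out, the embryonic globin cells left out, and the named other types left out with 2 unnamed clusters (led by Lsp1 and Ccr2 and by Sparc and Dcn, an alternative chosen after seeing the data). The count higher was 2 with antibodies scaled within each cell (Cdk4 and Cdk6) and with no lineage filter (Ccnd1 and Cdkn1a), and 1 with log10 antibody counts, the Gaussian mixture, doublets kept, embryonic globin cells left out and 1.5-fold (Cdkn1b in each) and with at least 20 UMIs (Cdkn1a). The cause was not tested. Over all alternatives the S3-over-S1 ratio was 5.45 to 25.9 for Cdkn2d, 2.40 to 10.98 for Cdkn1b, 1.56 to 8.04 for Cdkn2c and 0.105 to 0.377 for Cdk4. Of 180 shares of cells, 99 left their interval, and of 20 recomputed lists of the 3 genes most like a member 15 shared at most 1 gene with the list given. The r of Ndufv1 with Ccnd3 was 0.845 with all UMIs as denominator. The non-globin depth of S4/S5, a median of 1237 UMIs per cell, limits what can be said of Ccnd1, Cdkn1a and Cdk6 there.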

Other observations

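Cdkn1a UMIs were held by few cells. Over all stages 88 cells had a UMI of Cdkn1a, and 14 cells with at least 5 held 126 of the 237 UMIs (53.2%). These 14 cells had a median of 8490 UMIs and 4.79% mitochondrial UMIs, against 5562 and 3.99% in the other 5938, and 0 of them were in a cluster named as another type. The cells were chosen by their Cdkn1a count after the data were seen, so the values that follow describe them and carry no test. The levels of 10 other p53 target genes summed to 1869 in these cells (1641–2120, from 242 UMIs) and to 449 in the other cells (443–456), and 13 of the 14 cells were above the second value. Phlda3 had a level of 239 against 7.69, Ccng1, a cyclin G gene, 587 against 62.2, Bbc3, which encodes the death protein PUMA, 69.5 against 7.79, and Mdm2, the ligase that degrades p53, 139 against 39.8. In the 14 cells these rested on 31, 76, 9 and 18 UMIs, in that order. Of the 14, 10, 13, 6 and 7 cells were above the level of the other cells. Bax (525 against 251) and Aen (169.9 against 69.25) differed less. Gdf15 had 0 UMIs in the 14 cells, with an interval that reached a level of 28.5, against 1.02 in the other cells. S-phase genes summed to 2386 against 2714 and mitosis genes to 3143 against 3459, with 5 of the 14 cells above the level of the other cells in each list. Over the stages, without regard to these cells, the same p53 list summed to 482 in S0-low, then 523.5 in S0-medium and 456 in S1, 388 in S2, 326 in S3 and 332 in S4/S5.

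The members also differed between the clusters named as other cell types, whose levels include cells that lay in stages. S0-low held 188 of the 342 megakaryocyte-like and 89 of the 190 hepatocyte-like cells. Megakaryocyte-like cells had a Cdk6 level of 258.5, near the 263 of S0-low and the 269 of S0-low without the named other types. Of their inhibitor UMIs, 94.6% were Cdkn2d. Hepatocyte-like cells drew 64.5% of their D-cyclin UMIs from Ccnd1. Myeloid-like cells drew 82.2% from Ccnd3. Macrophage-like cells had the highest Cdkn1a level of the named types, 88.8, against at most 16.2 in an erythroid stage.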
